A study of Mus musculus with 7 samples.

Results

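Conventional type 1 dendritic cells (cDC1) are sentinel cells of the lung that take up dying cells and present their antigens on MHC class I molecules to CD8 T cells, a process called cross-presentation. Their development depends on the transcription factors IRF8 and BATF3 and on the growth factor receptor FLT3, and in tissues they are recognized by the integrin CD103, the chemokine receptor XCR1 and the dead-cell receptor DNGR-1. A resting cDC1 also carries sensors for microbial nucleic acids, MHC class II molecules loaded through the invariant chain, and a chemokine receptor that takes it to the draining lymph node once it matures.

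The data described here are the 4 arrays of cDC1 from lungs of healthy C57/BL6 control mice, out of 7 arrays in the series. The other 3 arrays, of cDC1 from lungs bearing KP tumors, were not used. Every array was hybridized with RNA of cells pooled from the lungs of 2 to 3 mice, so the spread between arrays is a spread between pools and not between animals. The controls were injected with PBS where tumor mice received KP cells, and their age and sex are not given in the sources used here. CD11c-positive cells were enriched on a column before cDC1 were sorted. Of the antibodies in the sort, those to MHC class II, CD11c and CD103 stain cDC1, and those to CD11b and SiglecF stain other lung myeloid cells. The levels of the genes for these proteins are therefore partly a product of the sort. All 4 healthy arrays were kept, no contrast was made, and no test between groups was run. A level is the mean of the 4 log2 values of a probe set, ± is the SD over the 4 arrays (n = 4), and a rank is the place of that mean among all 25428 probe sets of the table, counted from the highest. A level also depends on how well the probes of a gene bind, so a rank orders array signals and not numbers of mRNA molecules.

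Of the 25428 probe sets, 24705 could be given a gene symbol. To set a limit below which a signal was not told apart from that of probe sets without their transcript, the 1073 olfactory receptor probe sets were used, since these receptors belong to sensory neurons of the nose. Their median level was 2.04, and their 95th percentile, 4.01, was taken as the background limit. On the healthy arrays 10086 named probe sets, or 40.8%, had a mean above this limit, and 8606 (34.8%) were above it on every array. No array was above it for 13200 probe sets (53.4%), and between 1 and 3 arrays were for 2899 (11.7%). The last probe set above the limit held rank 10420. Protein-coding genes were above it in 45.9% of cases, lncRNA genes in 15.5%. The counts of list and family members given below are to be read beside these shares.

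The limit divides a continuous range and a probe set below it can belong to an expressed gene. Common reference genes show this. Actb, which encodes cytoskeletal actin, ranked 3 at 12.38 ± 0.11, and Hprt, a purine salvage enzyme, ranked 1876 at 7.31 ± 0.04. Gapdh, a glycolytic enzyme that every cell uses, ranked 22570 at 2.04 ± 0.25, and Eef1a1, the translation elongation factor, ranked 12465 at 3.57 ± 1.18. A low level on these arrays was hence read as a signal near background and never as the absence of a transcript. Around the limit, the protein-coding genes Mcm9 (4.01) and D430019H16Rik (4.01) were just inside, and Spaca3 (4.01) was just outside, all within 0.01 of it.

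**Figure D1:**
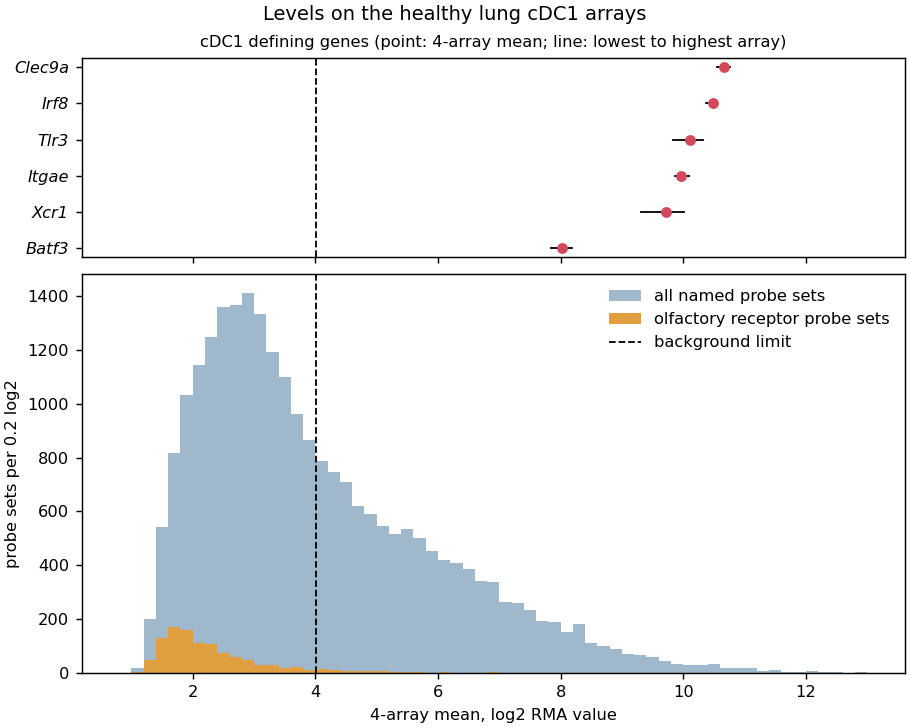
Upper panel: the 6 cDC1 defining genes, with the mean of the 4 healthy arrays as a point and the lowest and highest array as a line, on the log2 RMA scale. Lower panel: number of probe sets per 0.2 log2 for all named probe sets and for the 1073 olfactory receptor probe sets, with the background limit of 4.01 as a dashed line. The 6 genes lie between 8.02 and 10.67, far to the right of the bulk of the table.

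The cells were first checked against genes that define cDC1. All 6 defining genes were above the limit on all 4 arrays, all were within the top 5% of the table, and their median rank was 178.5. Clec9a, the gene of the dead-cell receptor DNGR-1, read 10.77, 10.55, 10.67 and 10.70 on replicates 1 to 4 and ranked 85. Irf8, the transcription factor on which the lineage depends, read 10.52, 10.37, 10.54 and 10.54 and ranked 114. Tlr3, a sensor of double-stranded RNA, read 10.09, 9.83, 10.32 and 10.21 and ranked 167. Replicate 2 gave the lowest of the 4 values for each of these genes, and no gene ranged over as much as 0.5 log2 units.

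Itgae, the gene of CD103 and part of the sort, read 9.86, 9.88, 10.09 and 10.06 and ranked 190. Xcr1, the receptor for the chemokine XCL1 of activated T and NK cells, read 9.82, 9.32, 9.72 and 10.01 and ranked 240. Batf3, which sustains Irf8 expression during cDC1 development, read 8.08, 7.97, 7.85 and 8.19 and ranked 1111. Within the defining genes Xcr1 had the largest spread (SD 0.29) and Irf8 the smallest (SD 0.08), and no member ranged over more than 1 log2 unit.

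A wider list of 21 genes known from cDC1 gave 20 above the limit, 15 of them within the top 5% of the table and 19 within the top 10%. Naaa, a lysosomal amidase, was the highest of them at 11.08 ± 0.15 (rank 52). It was followed by Ifi205, an interferon-inducible gene, at 10.52 ± 0.22 (rank 104), and Id2, an inhibitor of helix-loop-helix factors that the lineage needs, at 10.39 ± 0.17 (rank 126). Cd24a, a surface sialoglycoprotein, and Wdfy4, which is required for cross-presentation of cell-associated antigen, ranked 132 and 146. Dpp4, Cadm1, Timd4, Itgax and Flt3 formed a group between ranks 363 and 422, at levels of 9.11 to 9.30. Timd4 encodes TIM4, a receptor for phosphatidylserine on dying cells. It read 9.57, 9.61, 8.61 and 8.94 on replicates 1 to 4, with the higher values on replicates 1 and 2. Flt3 read 9.06, 9.11, 9.32 and 8.96, a spread of 0.15.

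Lower in the same list stood Cd207, the lectin langerin (8.40 ± 0.43), Btla, an inhibitory receptor (8.37 ± 0.20), and Havcr2, the gene of TIM3 (8.28 ± 0.09). Cxcr3, Zbtb46, Ly75, Snx22 and Fkbp1b ranked between 1199 and 2441. Gcsam, a signaling adaptor, was the most variable member, with 7.96, 7.12, 9.28 and 9.37 on the 4 arrays and an SD of 1.09. Nfil3, a transcription factor that acts early in cDC1 development, ranked 6873 at 5.0 ± 0.31. Cd8a, which marks the cDC1 of lymphoid organs in mice, was the member below the limit, at 3.56, 3.16, 3.80 and 5.12 on replicates 1 to 4, and replicate 4 alone was above the limit.

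**Figure D2:**
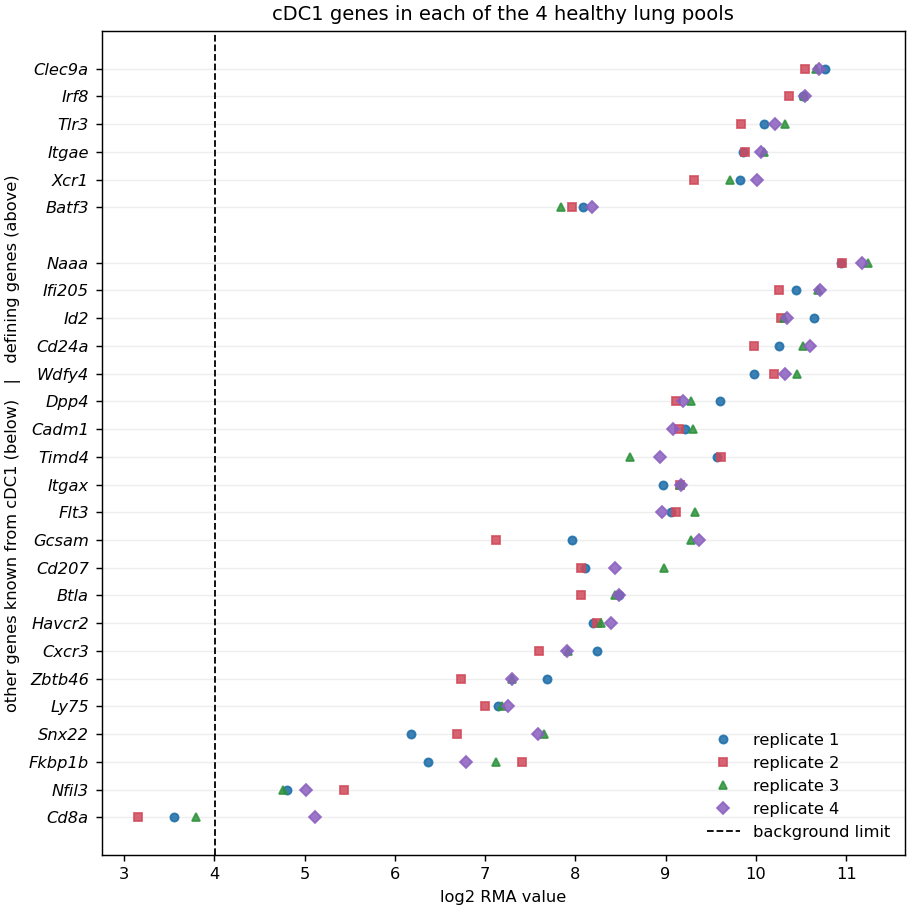
Log2 RMA value (x axis) of the 6 defining genes and the 21 other genes known from cDC1 on each of the 4 healthy arrays, with 1 symbol per replicate and the background limit of 4.01 as a dashed line. The 4 values of most genes lie close together, while 5 of the 21 other genes, among them Gcsam, Snx22 and Cd8a, are spread over more than 1 log2 unit.

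The highest signals of the table came next. Leaving out structural RNA, the 30 highest named probe sets had means between 11.37 and 12.59, with a median SD of 0.11. They comprised 23 protein-coding genes, 6 pseudogenes and the nuclear lncRNA Malat1 (rank 32, 11.37 ± 0.10). The pseudogenes Gm9493, Gm10051, Gm9843, Gm10073, Gm13875 and Gm3839 can share sequence with other genes, and the array cannot say from which transcript their signal comes.

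Antigen presentation had several genes among these 30. B2m, the light chain of MHC class I, ranked 4 (12.35 ± 0.11) and the class I heavy chain gene H2-D1 ranked 5 (12.28 ± 0.17), with the limit that classical class I genes are near-identical in sequence. The class II chain genes H2-Ab1 and H2-Aa ranked 6 and 29, and Cd74, the invariant chain, ranked 8. Cst3, a secreted inhibitor of cathepsins, ranked 10 at 12.12 ± 0.04. The cytoskeleton was represented by Actb, Vim and Tmsb4x, with ranks between 3 and 19, and the protein synthesis machinery by Rplp1 (rank 2), Rps21 (rank 12) and Pabpc1 (rank 18). Crip1 and Sh3bgrl3 ranked 7 and 11. The lysosome contributed Laptm5 (rank 9), Plbd1 (rank 22) and Psap (rank 31).

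The remaining members of the 30 were the small surface proteins Cd52 (rank 17), Ly6e (rank 20) and Fxyd5 (rank 23), the chemokine Ccl22 (rank 16), the mRNA-destabilizing factor Zfp36 (rank 14) and the inducible chaperone Hspa1a (rank 24). Ly6e varied least of all 30, with 11.57 on replicate 1 and 11.56 on the other arrays. Among the top-ranked structural RNAs, Rn18s-rs5 held rank 1 at 12.88 ± 0.05. It is annotated as a pseudogene and was placed with the structural RNAs by its symbol. Rn7sk, a nuclear RNA that restrains transcription elongation, held rank 13 at 11.87 ± 0.32. Replicates 3 and 4 gave the higher values of Rn7sk (12.20 and 12.09) and replicates 1 and 2 the lower (11.66 and 11.53).

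Genes of MHC class II and its helpers had the highest median level of the 35 lists, with a median rank of 165.5. All 16 measured members were above the limit on every array. H2-Ab1 read 12.27, 12.20, 12.25 and 12.21 and H2-Eb1, another class II beta chain, read 11.28, 11.35, 11.34 and 11.31. These 2 genes had an SD of 0.03 each, against a median SD of 0.22 for probe sets of like level. H2-Aa read 11.45, 11.22, 11.56 and 11.58, and Cd74 read 12.22, 12.08, 12.19 and 12.16.

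The peptide editor H2-DM followed, with H2-DMb2 at rank 98, H2-DMa at rank 101 and H2-DMb1 at rank 150. Its antagonist H2-O was lower, with H2-Oa at rank 575 and H2-Ob at rank 1950. Ctss, the cathepsin that cuts the invariant chain in dendritic cells, read 10.84, 10.07, 10.54 and 10.54 (rank 112), with replicate 2 the lowest. Ciita, the coactivator that switches the class II genes on, ranked 925 at 8.24 ± 0.16. Lgmn, Ctsl and Marchf1, a pair of further lysosomal proteases and the ligase that turns over class II in resting cells, had the lowest levels of the list, between 5.11 and 5.21.

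Since the class II genes stood so high together, the sequence before their start sites was read from the RefSeq promoter table of build GRCm38.p6. Of 10 class II genes looked up (H2-Ab1, Cd74, H2-Aa, H2-Eb1, H2-DMb2, H2-DMa, H2-DMb1, H2-Oa, H2-Ob and Ciita) 7 had an entry. Class II promoters are known for an X box followed by a Y box. The letters AGNAAC, any 3 bases and TG were searched for the X box and GATTGG for the Y box, on both strands of the 250 bases before each start. Among all 32851 windows of the table, 3.43% held the X letters and 14.6% the Y letters. Of the 7 class II genes, 3 held the X letters and 7 the Y letters. The X letters followed by the Y letters on the strand of transcription, with at most 40 bases between them, occurred in 9 windows of the whole table (0.0274%), and 4 of these 9 were class II genes, namely H2-Eb1, H2-DMb1, H2-Ob and H2-Eb2. The last 100 bases before the start are shown for the 3 genes of the lookup that held both, to let the spacing be seen. H2-Aa, which held the Y letters without the X letters, is shown beside them. No mismatch to the letters was allowed, so a promoter without them can still hold an X box. The capitals mark the searched letters.
H2-Eb1: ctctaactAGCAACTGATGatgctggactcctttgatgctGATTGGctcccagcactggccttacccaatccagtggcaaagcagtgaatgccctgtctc
H2-DMb1: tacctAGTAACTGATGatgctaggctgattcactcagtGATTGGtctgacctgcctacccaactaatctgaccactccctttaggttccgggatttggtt
H2-Ob: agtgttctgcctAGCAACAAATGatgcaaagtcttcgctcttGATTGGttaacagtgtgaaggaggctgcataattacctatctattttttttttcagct
H2-Aa: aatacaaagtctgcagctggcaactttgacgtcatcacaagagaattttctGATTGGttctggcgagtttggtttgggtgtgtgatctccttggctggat
The stretches lie on chromosome 17 at chr17:34305767-34305866 (H2-Eb1, plus strand), chr17:34153091-34153190 (H2-DMb1, plus strand), chr17:34238805-34238904 (H2-Ob, plus strand) and chr17:34287824-34287923 (H2-Aa, minus strand). The X letters ended 21, 22 and 19 bases before the Y letters in H2-Eb1, H2-DMb1 and H2-Ob. A match describes the sequence and is no evidence of binding. Levels of the 3 genes with both motifs ran from rank 35 (H2-Eb1) through rank 150 (H2-DMb1) to rank 1950 (H2-Ob), so the same letters accompanied quite different signals.

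Genes of MHC class I and cross-presentation were above the limit in 24 of 25 cases, with a median rank of 871. After B2m and H2-D1 came Psme1, a proteasome activator subunit (11.09 ± 0.15, rank 51), and Psmb9, an immunoproteasome subunit (11.07 ± 0.07, rank 53). Psmb8, another immunoproteasome subunit, was at 9.22 ± 0.10 and Psmb10 at 7.56 ± 0.25. The chaperones of class I folding Calr, Canx and Pdia3 ranked between 230 and 251. Tap1 and Tap2, which pump peptides into the endoplasmic reticulum, were at 8.18 ± 0.16 and 7.52 ± 0.35. Rab43 and Sec22b, trafficking proteins linked to cross-presentation, ranked 871 and 1890. The NADPH oxidase chain gene Cyba read 9.16, 8.60, 8.72 and 9.46, whereas its partner Cybb, which is abundant in macrophages, read 5.79, 3.92, 3.62 and 4.54, highest on replicate 1. Cd1d1, which presents lipids, was below the limit at 3.14 ± 0.15. Across the proteasome family, taken by symbol, 39 of 42 genes were above the limit.

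**Figure D3:**
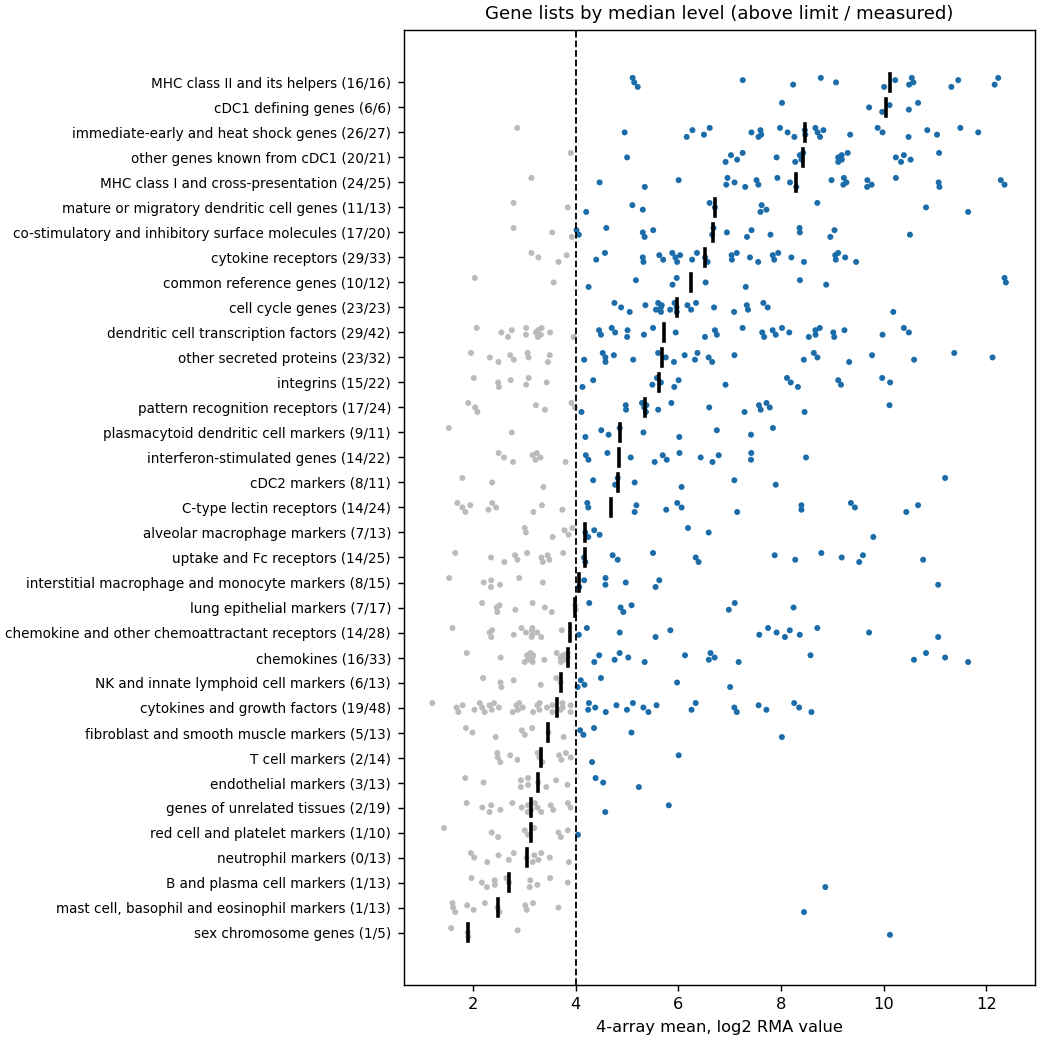
Mean log2 RMA value over the 4 healthy arrays (x axis) of every measured member of the 35 gene lists, each point a gene, blue above and gray not above the background limit (dashed line), with a black bar at the median of the list. Lists are ordered by median, and the label gives members above the limit over members measured (the list of dendritic cell transcription factors also holds factors of other lineages). MHC class II, cDC1 and immediate-early genes lie at the top, and markers of neutrophils, B cells and mast cells and the sex chromosome genes at the bottom.

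Of the list of transcription factors of dendritic cells and of other lineages, 29 of 42 were above the limit, beside 40.8% of all named probe sets, and 13 were within the top 5%. Irf8 and Id2 led the list, and were followed by Nr4a1, an orphan nuclear receptor induced within minutes of a stimulus (9.98 ± 0.14, rank 187). Bcl6, a repressor needed by cDC1, read 9.23, 8.77, 9.71 and 9.24. Spi1, the gene of the myeloid master factor PU.1, read 9.05, 8.91, 9.13 and 9.05. Nr4a3, Etv6, Runx3, Egr1 and Notch2 lay between ranks 461 and 700, with Runx3 the most even of them at 8.67 ± 0.05. Stat3, Batf3, Klf4, Irf2, Ikzf1, Rbpj and Zbtb46 lay between ranks 994 and 1954.

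The list also held factors known from other lineages. Klf4, a factor of monocytes and of part of the cDC2, was at 7.90 ± 0.44. Tcf4, the factor of plasmacytoid dendritic cells, was at 6.75 ± 0.29, and Irf4, on which cDC2 depend, was at 4.77 ± 0.21. Zeb2, which opposes the cDC1 fate, was at 3.23 ± 0.36, Maf at 3.34 ± 0.39 and Prdm1 at 3.27 ± 0.15. Pax5 of B cells, Gata3 of T cells and Gata1 of red cells and mast cells were at 3.50, 3.32 and 2.56. The lowest members were Gata1 and Sox2, a stem cell factor (2.08 ± 0.07). Cebpb, a factor of monocytes and macrophages, read 5.38, 3.77, 3.24 and 3.46, above the limit on replicate 1 alone.

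Of 24 pattern recognition receptors, 17 were above the limit, or 70.8%, beside 40.8% of all named probe sets. Tlr3 was the highest by a wide margin. Tlr9, the receptor for unmethylated DNA, was at 8.46 ± 0.05 (rank 743) and Sting1, the adaptor for cytosolic DNA, at 7.78 ± 0.41 (rank 1334). Tlr11 and Tlr12, a receptor pair for the profilin of parasites in mice, ranked 1399 and 1557, and Tlr13, which detects bacterial ribosomal RNA, ranked 1909. Aim2, a DNA sensor of inflammasomes, was at 7.61 ± 0.07. Tlr7 and Tlr8, sensors of single-stranded RNA, were the lowest members at 1.91 ± 0.32 and 2.04 ± 0.11, and neither was above the limit on any array. Tlr5 and the RNA helicase gene Ddx58 were also below it. Tlr6 was the least even receptor, with 3.10, 8.11, 5.16 and 5.11 on replicates 1 to 4, a low value on replicate 1 and a high one on replicate 2. Tlr4, the receptor for lipopolysaccharide, read 5.25, 3.17, 5.90 and 5.61, with replicate 2 below the limit.

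The C-type lectin receptors, many of which bind sugars of microbes or of dying cells, were divided. Klrb1b, an inhibitory receptor better known from NK cells, ranked 119 at 10.44 ± 0.17, close to Clec9a. Clec12a, a receptor for uric acid crystals of dead cells, ranked 316 at 9.44 ± 0.20. Klrd1, the gene of CD94, read 9.15, 8.65, 9.65 and 10.01 and ranked 340. Clec2d (8.40 ± 0.36) and Ly75, the gene of DEC-205 (7.15 ± 0.11), were also well above the limit. In contrast 10 of the 24 members were not above it. The share above it, 58.3%, stands beside 40.8% of all named probe sets. Clec4a4, a marker of cDC2, and Clec4b1 were the lowest at 1.80 ± 0.17 and 1.70 ± 0.37, and Clec4e and Clec4d, receptors for mycobacterial lipids in macrophages, were at 1.95 and 2.45.

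Chemokine and other chemoattractant receptors were above the limit in 14 of 28 cases (50%), not far from the 40.8% of all named probe sets. Ccr2, the receptor that draws monocytes to tissue, was the highest at 11.18, 10.94, 11.10 and 11.03 on the 4 arrays (rank 54). Ccr7, which guides maturing dendritic cells to the lymph node, read 8.81, 7.98, 9.01 and 9.04 (rank 611). Replicate 2 was again the lowest, here by 0.83 or more. P2ry10, Cxcr4, Gpr183, Cxcr3, P2ry14 and Ltb4r1 ranked between 813 and 1546, and of these P2ry14, the receptor for UDP-glucose, had the largest SD at 0.87. Cx3cr1, a receptor of monocytes and cDC2, was at 5.56 ± 0.14. Ccr3 and Ccr8 were the lowest at 1.60 ± 0.11 and 2.33 ± 0.11, while Ccr6 stood at 2.95 ± 0.02 and Ccr1 at 3.16 ± 0.27. Fpr2, a receptor for formylated peptides, averaged 2.80 but read 5.91 on replicate 1, against 1.71, 1.58 and 1.99 on the other arrays.

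Cytokine receptors were above the limit in 29 of 33 cases (87.9%), beside 40.8% of all named probe sets. Ifngr1 and Ifngr2, the chains of the interferon gamma receptor, ranked 307 and 378, and Ifnar2 and Ifnar1, those of the type I interferon receptor, ranked 445 and 1574. Ifngr2 read 8.34, 9.65, 9.53 and 9.48 and Ifnar2 read 8.02, 9.28, 9.86 and 9.08, so that replicate 1 was the lowest array for both by more than 1 log2 unit. Csf2rb, the shared chain of the GM-CSF receptor, was at 9.07 ± 0.44, Csf2rb2 at 7.95 ± 0.25 and the ligand-binding Csf2ra at 7.14 ± 0.34. Kit, the stem cell factor receptor best known from mast cells, was even across the pools at 8.38, 8.39, 8.64 and 8.38 (rank 751). Il13ra1, Il10ra, Il6st, Tnfrsf1a, Tgfbr1 and Il6ra filled ranks 961 to 2261. The lowest members were Il12rb1 (3.14 ± 0.17) and Csf3r (3.28 ± 0.05), the receptor for G-CSF on neutrophils.

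Receptors for uptake and for antibody were above the limit in 14 of 25 cases (56%), beside 40.8% of all named probe sets. Tyrobp (10.77 ± 0.13, rank 78) and Fcer1g (9.52 ± 0.20, rank 288), the signaling adaptors that many activating receptors need, were among the highest. Cd36, a scavenger receptor, ranked 269 at 9.50, 9.36, 9.65 and 9.87. Besides Timd4 and Havcr2, which bind phosphatidylserine, the list held Axl, a receptor that binds it through the bridging protein GAS6, at 7.88 ± 0.41 (rank 1226). Its relatives Mertk and Tyro3 were not above the limit, at 3.49 ± 0.54 and 2.82 ± 0.00, where Tyro3 held 1 value on all arrays. Fcgrt, the neonatal Fc receptor, was at 8.79 ± 0.14 and the inhibitory Fcgr2b at 6.40 ± 0.14, whereas Fcgr1 and Fcgr4 were at 3.36 and 3.34. Fcer1a and Cd163 had the lowest levels, 1.66 ± 0.03 and 2.35 ± 0.01.

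Among co-stimulatory and inhibitory surface molecules, 17 of 20 (85%) were above the limit, beside 40.8% of all named probe sets. Cd86, which engages CD28 on T cells, was highest at 10.67, 10.39, 10.42 and 10.56 (rank 108), while its relative Cd80 ranked 1728 at 7.43 ± 0.09. Cd48, Cd83, Icosl and Btla ranked between 452 and 818. Tnfsf9 (the 4-1BB ligand) read 7.62, 8.61, 7.47 and 7.47, with replicate 2 the highest. Pvr and Vsir, the genes of CD155 and VISTA, ranked 1833 and 2388. Cd274, the gene of PD-L1, was at 5.51 ± 0.23 (rank 5463). Cd40, through which helper T cells license dendritic cells, read 3.94, 6.10, 5.42 and 5.77, with replicate 1 below the limit. Cd70 and Nectin2 were lowest at 2.79 and 3.55, and Cd70 was above the limit on replicate 2 alone (4.94).

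Integrins, the receptors by which cells hold to matrix and to each other, were above the limit in 15 of 22 cases. This share, 68.2%, stands beside 40.8% of all named probe sets. Itgb2 (10.13 ± 0.15, rank 164) was the highest, followed by Itgae, Itgb1 (9.17 ± 0.05) and Itgax (9.12 ± 0.10). Itgb7, the partner chain of CD103, read 8.41, 8.07, 8.10 and 7.89 and ranked 1033. Itga4 and Itgal ranked 846 and 973, and Itgav ranked 2446. Itgb8, which in other dendritic cells activates TGF-beta, was at 5.50 ± 0.59. Itgam, the gene of CD11b and part of the sort, was near the limit at 4.36, 4.46, 4.20 and 4.36. Itgb6 and Itga2 were lowest at 2.02 and 2.49.

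Among secreted factors, chemokines are taken first. Ccl22, a ligand of CCR4 on regulatory T cells, read 11.64, 11.58, 11.73 and 11.63 (rank 16). Ccl17, another ligand of the same receptor, read 11.20, 11.03, 11.20 and 11.36 (rank 41). Ccl5 read 10.96, 10.82, 10.27 and 11.24 (rank 71) and Cxcl16 read 10.67, 10.63, 10.55 and 10.51 (rank 93). These 4 genes were within the first 100 ranks, and only Ccl5 ranged over as much as 0.97 log2 units. A wide gap separated them from Ccl4 (8.58 ± 0.60, rank 677) and Ccl6 (7.18 ± 0.53, rank 2052).

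In all 16 of 33 chemokines (48.5%) were above the limit, not far from the 40.8% of all named probe sets. Cxcl9, an attractant of effector T cells, read 7.42, 4.98, 7.64 and 6.79, low on replicate 2. Cxcl2, an attractant of neutrophils, read 8.13, 7.84, 4.87 and 5.67, higher on replicates 1 and 2 than on the others. Cxcl10, a further ligand of CXCR3, read 4.47, 6.48, 4.32 and 4.17, high on replicate 2. Ccl19 had a mean below the limit, with 2.30, 5.67, 4.93 and 2.48. The lowest members were Ccl12 (1.88 ± 0.10) and Cxcl3 (2.54 ± 0.51).

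Of 48 cytokines and growth factors 19 were above the limit, a share close to that of all named probe sets. Il1b (rank 666) read 8.88, 9.70, 8.10 and 7.70 and Tnf (rank 827) read 6.38, 8.96, 9.31 and 8.76, so that both ranged over more than 1.5 log2 units and in different orders. Tgfb1 ranked 909 at 8.40, 7.83, 8.40 and 8.40. Il12b, a chain shared by interleukins 12 and 23, read 7.33, 7.76, 7.60 and 8.17 (rank 1402), while Il12a, the chain particular to interleukin 12, was at 2.97 ± 0.11 and Il23a at 3.55 ± 0.18. Ebi3, Il18 and Tnfsf13b ranked between 1565 and 2176. Il1a read 6.37, 7.92, 6.17 and 4.91, highest on the same array as Il1b. Ifnl2, a type III interferon, was at 6.26 ± 0.21. Il10 was at 2.23 ± 0.10, Il6 at 2.41 ± 0.28 and Ifnb1 at 1.72 ± 0.00. The lowest members were Il22 (1.21 ± 0.07) and Il2 (1.68 ± 0.08).

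Other secreted proteins were above the limit in 23 of 32 cases (71.9%), beside 40.8% of all named probe sets. Cst3, Psap and Grn, the last 2 precursors that reach the lysosome, ranked 10, 31 and 92, and Grn read 10.59, 10.56, 10.61 and 10.61. Anxa1, Lgals3, Lgals1, Ctsz and Ctsb ranked between 229 and 754. Lgals1 read 7.79, 9.25, 8.54 and 9.26, low on replicate 1. Ctsd, a lysosomal protease, read 8.99, 7.26, 5.78 and 6.35, high on replicate 1, as did Lpl, the lipoprotein lipase of alveolar macrophages, with 7.31, 4.83, 4.33 and 4.03. S100a8 and Retnla were lowest, at 1.96 ± 0.07 and 2.33 ± 0.35.

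Genes of mature or migratory dendritic cells were above the limit in 11 of 13 cases, with a median rank of 2815. After Ccl22, Ccl5 and Ccr7 came Il12b, Samsn1 (7.62 ± 0.27) and Fscn1, an actin-bundling protein of migrating dendritic cells (7.60 ± 0.21). Relb and Nudt17 were at 6.71 ± 0.27 and 6.61 ± 0.65. Socs2 was just above the limit at 4.21 ± 0.02, and Ccl19 and Cd70 were below it.

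Immediate-early and heat shock genes, which respond within minutes to handling as well as to signals in the tissue, were above the limit in 26 of 27 cases, with a median rank of 739. Zfp36, Hspa1a and Hspa1b ranked 14, 24 and 56, and Hspa8, Btg2, Nr4a1 and Dusp1 ranked between 67 and 201. The AP-1 genes Fos (9.35 ± 0.42), Fosb (8.83 ± 0.52) and Junb (8.71 ± 0.68) were within the top 5%. Jun read 6.87, 8.73, 9.38 and 8.93, low on replicate 1, and Junb likewise read 7.72, 9.17, 9.15 and 8.82. Replicate 3 was the highest array for 13 of the 27 genes. Hsp90aa1 was below the limit at 2.87 ± 0.21.

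All 23 cell cycle genes were above the limit on every array. Pcna, the clamp of DNA replication, ranked 154 with 9.95, 9.85, 10.38 and 10.56. Top2a, Mki67, Ccna2, Ube2c and Mcm6 were at 7.74, 7.66, 7.36, 7.33 and 7.09 and ranked between 1368 and 2187. Mki67 read 7.58, 7.58, 7.90 and 7.58. The least even member was Ccnb2, with 6.03, 4.93, 7.01 and 7.03. In bulk RNA, fewer cells of a type and less RNA per cell cannot be told apart, for dividing cells as for the other cell types below.

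Interferon-stimulated genes were above the limit in 14 of 22 cases, with a median rank of 7376.5. Ifitm3 was the highest at 8.94, 7.77, 8.35 and 8.89 (rank 721), followed by Stat2 (7.42 ± 0.27), Bst2 (7.42 ± 0.29), Irf9 (6.79 ± 0.15), Xaf1 (6.67 ± 0.52) and Ifi27l2a (6.44 ± 0.57). Isg15, Rsad2, Oas1a and Rtp4 were below the limit, at 3.32, 2.61, 2.78 and 2.50. Replicate 2 was the lowest array for 10 of the 22 genes.

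Lineage markers of other cells were then examined, since a sorted pool can hold other cells. Neutrophil markers had 0 of 13 means above the limit, and the highest member, Mpo, was at 3.87 ± 0.22. Single arrays were above it for Mpo (4.20 on replicate 1) and S100a9 (4.76 on replicate 3). B and plasma cell markers gave 1 of 13, Ighm, with 8.76, 9.03, 8.99 and 8.67 (rank 526), while Cd79a, Cd79b, Ms4a1 and Pax5 lay between 2.43 and 3.50. Mast cell, basophil and eosinophil markers gave 1 of 13, which was Kit, and their defining protease and receptor genes Cpa3, Mcpt4 and Fcer1a were at 1.89, 1.62 and 1.66. For comparison, genes of unrelated tissues gave 2 of 19, Mbp (5.82 ± 0.08) and Prm2 (4.58 ± 0.55).

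T cell markers were above the limit in 2 of 14 cases. Trbc2, a constant region of the T cell receptor, was at 6.01 ± 0.19, and Cd2 read 6.76, 3.69, 3.77 and 3.07, above the limit on replicate 1 alone. Cd3d, Cd3e and Cd3g were at 3.30, 2.54 and 2.48. NK and innate lymphoid markers gave 6 of 13, led by Klrk1 (7.01 ± 0.55) and Il7r (5.98 ± 0.52), with Tbx21, Klrb1c, Nkg7 and Prf1 between 4.04 and 4.49 and Ncr1, Gzma and Eomes not above the limit. Endothelial markers gave 3 of 13 (Vwf, Cdh5 and Egfl7, at 5.23, 4.54 and 4.39), and Pecam1 was at 3.62. Fibroblast and smooth muscle markers gave 5 of 13 (38.5%). This share and the 46.2% of the NK and innate lymphoid markers were near the 40.8% of all named probe sets. Mgp, a matrix protein, read 7.94, 7.69, 8.05 and 8.39 (rank 1112), Acta2, Myh11, Col1a1 and Col3a1 were between 4.09 and 5.09, and Dcn and Lum, defining genes of fibroblasts, were at 1.99 and 1.87. Red cell and platelet markers gave 1 of 10, Epor at 4.05, and 2 of 10 without replicate 3.

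Markers of the other dendritic cells were spread over a wide range of levels. Of 11 cDC2 markers 8 were above the limit. Ccl17 was the highest of them at rank 41, and Klf4 and Tnfsf13b followed at 7.90 ± 0.44 and 7.09 ± 0.55. Cd209a (6.07 ± 0.56), Mgl2 (5.15 ± 0.92), Sirpa (4.82 ± 0.44), Irf4 and Itgam were lower, and Clec10a and Clec4a4 were not above the limit. Of 11 plasmacytoid markers 9 were above it, namely Cd300c (7.84 ± 0.87), Bst2, Tcf4, Siglech (6.02 ± 0.19), Il3ra, Ccr9, Cox6a2, Pacsin1 and Ly6d, while Klk1 was at 1.53 ± 0.11. Interstitial macrophage and monocyte markers gave 8 of 15 (53.3%), beside 40.8% of all named probe sets. Ccr2 led them, Csf1r and Cx3cr1 were at 5.63 and 5.56, Cd14 at 4.98, and C1qa, C1qb, C1qc and Lyve1 lay between 4.07 and 4.58. Fcgr1 and Ly6c2 were at 3.36 and 2.36.

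Markers of alveolar macrophages and of the lung epithelium were highest on a single array. Alveolar macrophages are abundant CD11c-positive cells of the lung that carry SiglecF. The linear values of their 13 measured markers summed to 2789 on replicate 1, against 945, 1015 and 1152 on replicates 2, 3 and 4. Plet1 had the highest value of the list on every array and made up the larger part of each sum. The mean of the log2 values, in which it weighs less, was 6.04 on replicate 1, against 4.67, 3.81 and 4.27 on replicates 2, 3 and 4. Of the 13 markers 11 were highest on replicate 1. Chil3, a chitinase-like protein, read 9.17, 7.04, 3.55 and 6.60. Atp6v0d2, a proton pump subunit, read 7.71, 4.44, 2.84 and 2.89. Car4, a carbonic anhydrase, read 7.11, 3.26, 2.68 and 2.70, so that its mean of 3.94 was below the limit in spite of replicate 1.

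Mrc1, the mannose receptor, read 6.37, 4.47, 2.96 and 3.20 and Marco, a scavenger receptor, read 5.22, 4.36, 3.71 and 3.47, both highest on replicate 1. Siglecf itself read 3.92, 4.74, 4.40 and 4.40, lowest on replicate 1. Abcg1, a cholesterol exporter, was even at 6.19 ± 0.18. Plet1, a surface protein, ranked 220 at 10.52, 9.17, 9.72 and 9.78. With all arrays 7 of the 13 markers (53.8%) had a mean above the limit, beside 40.8% of all named probe sets. Of these 7 markers 2 were above it on every array, and without replicate 1 the count of 7 became 4. Pparg, the defining factor of these macrophages, read 3.57, 3.04, 2.76 and 2.76 and was not above the limit on any array.

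The 17 lung epithelial markers summed to 2641 on replicate 1, against 882, 497 and 651 on replicates 2, 3 and 4, and 12 of them were highest on replicate 1. The mean of the log2 values was 4.73 on replicate 1, against 4.08, 4.06 and 4.08 on replicates 2, 3 and 4. A pair of secretory transcripts, Scgb1a1 and Sftpc, had the highest values and made up the larger part of the sum on replicate 1. Scgb1a1, the club cell secretoglobin, read 10.66, 8.99, 5.72 and 7.61, and Sftpc, the surfactant protein of type II cells, read 9.37, 5.09, 6.90 and 7.05. Epcam, which dendritic cells can also express, was even at 6.99 ± 0.17. Ager, Krt8, Cdh1 and Sftpb were between 4.27 and 5.09, and Nkx2-1, the defining factor of lung epithelium, was at 2.52 ± 0.00. Of the 17 markers 7 were above the limit, or 41.2%, a share like the 40.8% of all named probe sets. The part of such cells in the other values of replicate 1 was not tested.

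**Figure D4:**
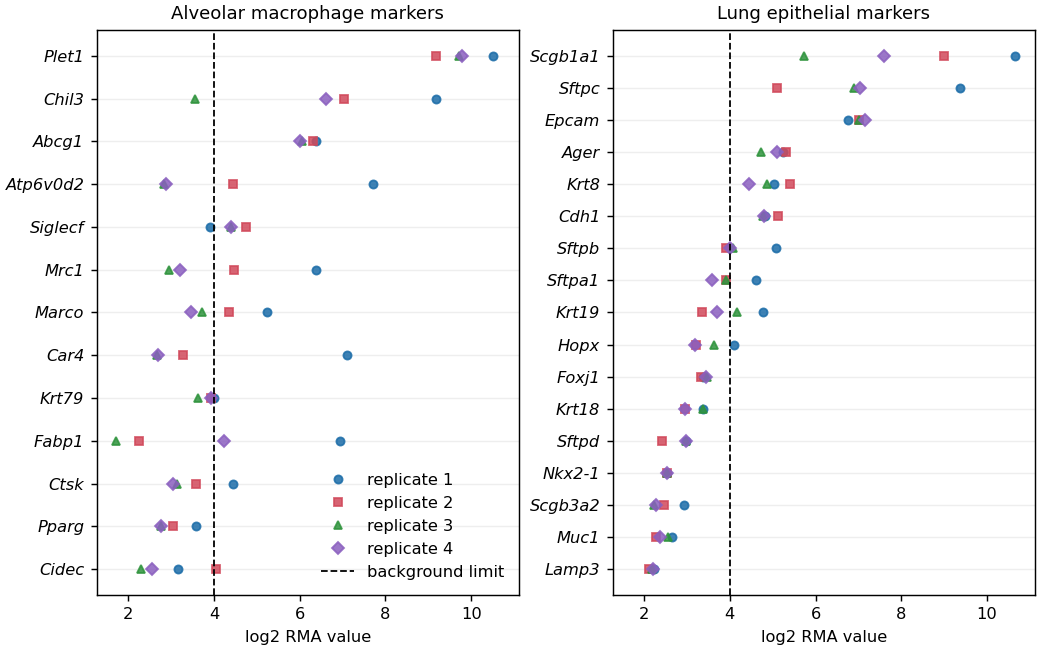
Log2 RMA value (x axis) of the 13 alveolar macrophage markers and the 17 lung epithelial markers on each of the 4 healthy arrays, with 1 symbol per replicate and the background limit of 4.01 as a dashed line. Replicate 1 is to the right of the other arrays for Chil3, Atp6v0d2, Mrc1, Car4, Fabp1, Scgb1a1 and Sftpc.

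The sex chromosome genes gave a uniform picture of the pools. Xist, the lncRNA of the inactive X chromosome, read 9.98, 10.01, 10.39 and 10.10 (rank 165). The Y-linked genes Kdm5d, Uty and Eif2s3y were at 1.91, 1.90 and 1.58, each near background on every array. Of the protein-coding genes of the X chromosome 33.2% were above the limit, the lowest share of any chromosome but Y, and the autosomes ran from 39.0% (chromosome 7) to 52.3% (chromosome 11).

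The spread over the 4 pools depended on the level. Probe sets above the limit had a median SD of 0.33. By bins of the mean, the median SD was 0.33 from the limit to 6, 0.35 from 6 to 8, 0.26 from 8 to 10 and 0.19 above 10. The 4 values ranged over less than 0.5 log2 units in 31.5% of probe sets above the limit, over more than 1 in 33.4%, and over more than 2 in 7.16%. Across all probe sets, Pearson's r between arrays lay between 0.947 (replicates 1 and 2) and 0.978 (replicates 3 and 4). Across named probe sets above the limit it lay between 0.865 (replicates 1 and 2) and 0.947 (replicates 3 and 4). These are descriptions across genes that are not independent of each other. Replicates 1 and 2 were the arrays furthest from the rest in 32.0% and 31.2% of probe sets above the limit, and replicates 3 and 4 in 17.3% and 19.5%. Each array shared between 88 and 92 of its 100 highest probe sets with the 100 highest of the mean. That mean includes the array compared, so part of the overlap is built in.

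Ties between arrays were common. Between at least 1 pair of arrays 30.4% of all probe sets held an identical value, and 324 probe sets had 1 value on all 4 arrays. Among the smallest spreads within the top 5%, Ptpn6, the phosphatase SHP-1, read 8.58 on all arrays and Cct8, a chaperonin subunit, read 7.86 on all arrays. Clint1, Eif5b, Usp25, Ly6e, Pdcd6ip, Ccng1, Eif4g3 and Me2 completed the 10 most even genes, with SDs that round to 0.02 or less. Where the ties come from was not tested, so an SD of 0 was not read as a measure of precision.

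The largest spreads belonged to small RNA genes and protein-coding genes. Rpph1, the RNA of ribonuclease P, read 1.20, 3.68, 9.0 and 9.76 and had the largest SD of all, 4.15. Mterf1b, a mitochondrial transcription termination factor, showed the opposite order with 8.37, 8.12, 2.20 and 1.85. H4c3, a replication-dependent histone, read 4.77, 2.54, 8.51 and 9.10. In each of these 3 genes replicates 1 and 2 stood on one side and replicates 3 and 4 on the other.

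Snord89, Snord118 and Snord49b, small nucleolar RNAs that guide or assist RNA processing, were lowest on replicate 1 and had their higher values on replicates 3 and 4. Small nucleolar RNA genes in general had a median SD of 0.95 when above the limit, against 0.32 for protein-coding genes, and 86% of them ranged over more than 1 log2 unit. Histone genes taken by symbol were above the limit in 19 of 49 cases, and those above it had a median SD of 1.0. Most are replication-dependent histones, whose mRNAs lack a poly(A) tail. H1f7, H1f8 and H1f10, none of them above the limit, are counted but are not of that kind. H2bc13 was the highest of the 49, at 10.49, 10.05, 11.09 and 11.16 (rank 80).

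Among the other coding genes of large spread were Mthfsl (8.45, 2.57, 7.56 and 7.88, low on replicate 2), Ube2s, a ubiquitin-conjugating enzyme of mitosis (6.25, 10.04, 10.48 and 8.88, low on replicate 1), and Dpt, a matrix protein (7.45, 3.07, 2.71 and 4.39, high on replicate 1). Chil3, Atp6v0d2 and Scgb1a1 belonged to the same set and have been described with the markers. Olfr98 and Olfr99, olfactory receptor genes on chromosome 17, read 4.12, 1.72, 5.33 and 6.96 and 2.79, 2.92, 3.90 and 6.53, both highest on replicate 4. Apoo-ps, Gm42111, 0610040B10Rik and Snord45b had SDs between 1.81 and 2.32. Of the 100 named probe sets with the largest SD above the limit, 56 were protein-coding and 24 were structural RNA genes.

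**Figure D5:**
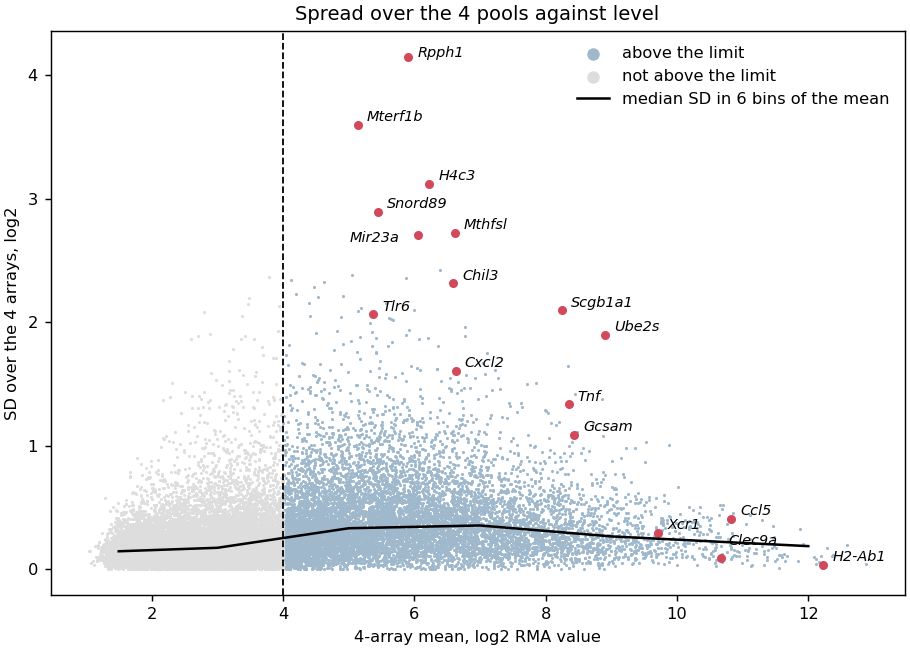
SD over the 4 healthy arrays (y axis, log2) against the 4-array mean (x axis, log2 RMA value) for all named probe sets, with the background limit of 4.01 as a dashed line and the median SD in bins of the mean as a black line. Rpph1 lies highest at an SD of 4.15, while the cDC1 gene Clec9a and the class II gene H2-Ab1 lie at or below the black line.

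MicroRNA genes were measured as precursor or host transcripts, since the array was not made for mature miRNA. Of 534 genes 112 were above the limit, and 67 of these 112 lie inside a protein-coding gene of build GRCm38.p6, so that their signal can belong to the host. Mir449b ranked 88 at 10.64 ± 0.43, inside Cdc20b, which itself ranked 10810. Mir3064 ranked 100 at 10.57 ± 0.22, inside Ddx5, which ranked 325. Mir5107 ranked 412 at 9.16 ± 0.90, inside Cd74.

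A miRNA cluster on chromosome 8 varied together. Mir23a read 3.40, 8.81, 4.10 and 7.92 on replicates 1 to 4, Mir27a read 4.55, 6.91, 4.55 and 6.70, and Mir24-2 read 1.91, 3.55, 2.73 and 3.86. Replicates 2 and 4 were above replicates 1 and 3 for all 3 genes, and Mir24-2 stayed below the limit on every array. Mir142, a gene of blood cells, read 6.11, 9.04, 7.41 and 7.06 with replicate 2 the highest, and Mir210, known from hypoxia, was even at 7.32 ± 0.18. Mir677 and Mir103-2 also had SDs over 2. The main mature products are shown from RefSeq, build GRCm38.p6, with bases 2 to 8, the seed that pairs with targets, in capitals, because a reader can see from them that the cluster members carry different seeds.
miR-23a-3p: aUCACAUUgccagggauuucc
miR-27a-3p: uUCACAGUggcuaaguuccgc
miR-24-3p: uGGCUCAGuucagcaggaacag
miR-142a-3p: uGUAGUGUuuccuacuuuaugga
miR-142a-5p: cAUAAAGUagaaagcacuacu
miR-210-3p: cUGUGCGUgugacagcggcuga
The first 3 lie at chr8:84208563-84208583, chr8:84208727-84208747 and chr8:84208875-84208896 on the plus strand, the miR-142a pair at chr11:87756903-87756925 and chr11:87756867-87756887 on the plus strand, and miR-210-3p at chr7:141221407-141221428 on the minus strand. The 6 seeds all differ from each other.

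Gene families outside the lists, grouped by the start of their symbols, rounded off the program. Such a group can hold genes that are not part of the complex it is named for. All 10 genes with Arpc or Actr symbols, among them subunits of the complex that builds branched actin, were above the limit. Their median rank was 1080, with Actr3 and Arpc2 at the head. Nduf symbols, the group of complex I of the respiratory chain, gave 41 of 45. Atp6v symbols, the group of the vacuolar ATPase, which acidifies endosomes, gave 16 of 22, with the pseudogene Atp6v0c-ps2 counted. Ribosomal protein genes gave 50 of 71, a family in which many copies are near-identical. Annexins gave 8 of 12 and Rab GTPases 39 of 59, with Rab1a and Rab7 highest. Keratins gave 10 of 54, immunoglobulin variable segments 26 of 199, and vomeronasal receptors, genes of a sensory organ, 15 of 272.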

How the data were processed

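RNA of lung cDC1 was hybridized to Mouse Gene 2.0 ST arrays. The labels and the study's methods name TriPure extraction, the labels also a column clean-up. For the amplification the labels name Nugen and the methods a 3' IVT protocol, and which was used is not settled here. The authors deposited log2 values made with RMA (background correction, quantile normalization and summary of probes), per the methods with the BrainArray Entrez definition file 22.0.0. Quantile normalization gives the probes of every array the same distribution before they are summarized, so a change in total RNA cannot be seen.

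The 4 arrays labelled healthy control were taken as replicates, each a separate pool per the labels. Their number limits the precision. Mean, SD, range and rank of each probe set were computed with pandas 2.3.3 and numpy 2.4.6 in Python 3.11.15, and the scripts were tested on simulated data. Symbols came from the platform table and RefSeq (24673 probe sets through RefSeq, 32 through the platform alone), and 723 unnamed probe sets kept their place in the ranks. The background limit was the 95th percentile of 1073 olfactory receptor probe sets. The ratio of an SD to that of probe sets of like level used the 500 nearest in the mean.

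The members and gene lists were chosen with earlier results of these data known, so no p-value is given. Of 648 listed genes 613 were measured. Named were the 30 highest probe sets apart from structural RNA, the cDC1 defining genes, the 6 highest of each list, for transcription factors, receptors and secreted proteins the members within the top 10% and the lowest 2, lineage markers above the limit, the 15 largest SDs and SD ratios, and the 10 smallest SDs of the top 5%. Members of the marker lists below the limit are given by their counts, with some defining genes. Other genes named, among them the remaining miRNAs, histones, family members and the least even members of lists, were chosen after their values were seen. Alternatives were the median, linear means, ranks among named probe sets, a second quantile normalization, other limits and leaving out each array. No contrast with tumor arrays was made.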

Additional observations from a re-analysis of the deposited data

Results flagged for a closer look

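Among the 383 genes named above, 69 had 1 array that stood apart from the other 3, with a gap to its nearest neighbour that made up nearly the whole range of the 4 values. The 69 are 18.0% of the genes named, against 18.3% of all named probe sets and 14.5% of those above the limit. Chance alone marks about 1 in 20 groups of 4 values, a rate that holds for values without ties. In many of the 69 the other 3 arrays held the same or nearly the same value, and 56 of them ranged over 1 log2 unit or less. The array that stood apart was replicate 1 in 22 genes, replicate 2 in 22, replicate 3 in 12 and replicate 4 in 13. Of the 35 lists, 2 had such an array in the sum of their linear values. Alveolar macrophage markers summed to 2789 on replicate 1, against 945, 1015 and 1152 on the other arrays, and Plet1 was the larger part of each sum. Immediate-early and heat shock genes summed to 21870 on replicate 3, against 18105, 18372 and 18692 on replicates 1, 2 and 4.

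The 13 genes that ranged over more than 1 log2 unit are given with the value of the array that stood apart. Replicate 1 was high for Car4 (7.11), Fpr2 (5.91) and Sftpb (5.08). Replicate 1 was low for Ifngr2 (8.34) and Il10ra (7.13). Replicate 2 was high for Cd70 (4.94), Cxcl10 (6.48) and Tnfsf9 (8.61). Replicate 2 was low for Mthfsl (2.57). Replicate 3 was high for 0610040B10Rik (6.80) and S100a9 (4.76). Replicate 4 was low for Ccl4 (7.69) and Cd300c (6.55).

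The other 56 genes differed by less. Replicate 1 lay above the rest for Acta2 (5.46), Aim2 (7.71), Ccr3 (1.76), Cdc20b (4.31), Fcer1a (1.70), Id2 (10.64), Ly6e (11.57), Mpo (4.20), Rsad2 (2.78), S100a8 (2.07), Tlr5 (3.50) and Usp25 (8.37). Replicate 1 lay below the rest for Ccr9 (4.63), Itgax (8.97), Lum (1.84), Sox2 (1.96) and Tlr12 (7.10). Replicate 2 lay above the rest for Ccl12 (2.02), Cdh1 (5.13), Clint1 (8.89), Gzma (3.28), Ikzf1 (8.09), Irf4 (5.09), Itgb1 (9.24), Nkg7 (4.16), Pax5 (3.64), Runx3 (8.75) and Stat3 (8.55). Replicate 2 lay below the rest for Btla (8.06), Ccr8 (2.17), Ifnb1 (1.72), Irf8 (10.37), Mbp (5.70), Tgfb1 (7.83) and Tlr11 (7.44). Replicate 3 lay above the rest for Csf2rb2 (8.32), Kit (8.64), Laptm5 (12.25), Mki67 (7.90) and Vwf (5.32). Replicate 3 lay below the rest for Cd79a (2.20), H2-Oa (8.52), Il3ra (4.66), Mcpt4 (1.57) and Pdcd6ip (8.80). Replicate 4 lay above the rest for Cst3 (12.18), Eif4g3 (7.88) and Fcgr4 (3.64). Replicate 4 lay below the rest for Ccr6 (2.92), Eomes (2.49), Epor (3.94), Gata3 (2.77), Il22 (1.10), Prdm1 (3.04), Prf1 (3.85) and Rab43 (7.93). What set these arrays apart was not tested.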

How the results depend on the processing

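The background limit was the choice on which most counts rested. It was 3.40 with the 90th percentile of the olfactory receptor probe sets and 5.08 with the 99th, and with the 99th percentile 6452 named probe sets were above it, against 10086. Leaving out 1 array at a time gave limits of 3.96 to 4.03 and counts of 10012 to 10277, a median rank of the cDC1 defining genes between 172.5 and 183.5, and between 359 and 372 list genes above the limit, against 364 with all arrays. The median spread of probe sets above the limit was 0.73 when given as a range in place of an SD, and the median SD was 0.27 to 0.33 with an array left out. Ranks of the 6 defining genes moved beyond their spread in 0 of 24 values under other settings and in 0 of 24 with an array left out. The second count was nearly fixed beforehand, since leaving out 1 of 4 arrays shifts a mean by only part of its SD. Counts of lists above the limit moved by over 1.5 times in 25 of 140 values under other settings, and in 2 of 140 with an array left out, the alveolar macrophage and the red cell and platelet markers. The median SD was 0.32 over protein-coding genes alone, an alternative chosen after seeing the data. No paired analysis was possible because the results come from 1 group with no test between groups. Values near the limit cannot be told apart from background at this number of arrays.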
